A study of Mus musculus with 2 samples.

Results

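Mir21a, Mir146, Mir146b, Mir155, Mir150 and Mir223 are miRNA genes known from immune cells and inflammation. They were taken by symbol from GENCODE M21, and all 6 were found among the 2202 miRNA genes of the count tables. The data are small RNA libraries (size limit 30 nt, total RNA) from left cerebral cortex of B6CASTF1/J males, F1 hybrids of C57BL/6J and CAST/EiJ, aged 4 days and without treatment in the labels. There is 1 group with 2 libraries, called replicate 2 and replicate 1 here as in their labels. Both carry the same donor identifier although the labels number the males apart, so whether they come from separate animals is unclear. The part of technical spread between them was not tested.

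A miRNA is cut from a hairpin transcript and guides the silencing complex to messenger RNAs that pair with its seed, bases 2 to 8 of the mature strand. In the immune system, miRNAs mark lineages and set how strongly inflammatory signalling runs. miR-223 is a miRNA of granulocytes and monocytes, and miR-150 of mature B and T lymphocytes. miR-155 is induced when macrophages, microglia and lymphocytes are activated. miR-146a is induced by NF-kB and represses Traf6 and Irak1, which act in Toll-like receptor signalling, and this makes it a feedback brake. miR-146b has the same seed. miR-21 is made in many cell types and increases in inflamed and injured tissue. In brain, resident microglia and blood left in the vessels are known sources of such miRNAs.

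The mature sequences are shown because the counts are per hairpin gene and the seed says which miRNAs act on shared targets. They are RefSeq sequences on GRCm38.p6, written 5′ to 3′ with the seed in capitals, and the table matched all 6 genes with 11 mature arms. For Mir150 the only arm in that table was miR-150-3p, so the seed of its 5p arm is neither shown nor compared.
miR-223-3p: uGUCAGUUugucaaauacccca
miR-21a-5p: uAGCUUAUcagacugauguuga
miR-155-5p: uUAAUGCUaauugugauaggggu
miR-146a-5p: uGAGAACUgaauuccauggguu
miR-146b-5p: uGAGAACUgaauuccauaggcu
miR-150-3p: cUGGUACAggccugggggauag
Of these, miR-146a-5p and miR-146b-5p share the seed GAGAACU, and the other 4 have 4 different seeds. The miR-146 pair had the same base at 20 of 22 positions. Counted from 1 at the 5′ end of miR-146a-5p, the differences were G18A and U21C.

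The hairpins of Mir146 and Mir146b show how far a read can tell them apart. The longest run they share is in capitals and is 21 nt long.
Mir146: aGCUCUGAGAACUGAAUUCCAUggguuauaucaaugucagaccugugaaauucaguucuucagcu
Mir146b: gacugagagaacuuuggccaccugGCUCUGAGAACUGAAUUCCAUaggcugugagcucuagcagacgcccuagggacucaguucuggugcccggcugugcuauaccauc
A read that ends inside this run would be placed at both genes and counted for neither. In the other members with a RefSeq hairpin the longest run shared with another listed hairpin was 15 nt for Mir21a (with Mir21c), 12 nt for Mir223 and 10 nt for Mir155.

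The genes lie at separate places in the genome, given here on mm10. Mir21a (chr11:86584067-86584158, minus strand) overlaps untranslated sequence in an exon of Vmp1, a protein-coding gene of autophagy. Mir155 (chr16:84714140-84714204, plus strand) is in an exon of its noncoding host Mir155hg. Mir223 (chrX:96242817-96242926, plus strand) is in an exon of the noncoding gene F630028O10Rik. Mir146b (chr19:46342762-46342870, plus strand) is in an intron of Mfsd13a. Mir146 (chr11:43374397-43374461, minus strand) and Mir150 (chr7:45121757-45121821, plus strand) overlap no other gene.

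Own-strand counts totalled 3577964 in replicate 2 and 2999032 in replicate 1, and levels are given as CPM, counts scaled to these totals. A count of 0 would allow up to 0.838 CPM in replicate 2 and 1.00 CPM in replicate 1. The markers of replicate 2 went against its cortex label, and those of replicate 1 did not. Mir206 of skeletal muscle was at 156302 CPM in replicate 2 and 70.7 CPM in replicate 1, and neuronal Mir137 was at 27.7 CPM in replicate 2 and 13418 CPM in replicate 1. The 9 muscle miRNA genes held 15.7% of counts in replicate 2 and 0.00730% in replicate 1, where 6 of them were at 0. The 11 neuronal miRNA genes held 0.120% in replicate 2, where all 3 Mir124a copies and Mir9-2 were at 0, and 3.89% in replicate 1. In replicate 1 the Mir124a copies had only 8, 3 and 1 counts and Mir9-2 had 7, so these zeros say little about the tissue. Mir126a, a gene of endothelium, held 2.29% in replicate 2 and 1.20% in replicate 1. Both the muscle and the neuronal sum miss reads placed at several sites. This touches genes with copies such as Mir1a and Mir133a in the muscle list and Mir124a and Mir9 in the neuronal list. Means over both libraries therefore rest on 1 library whose markers go against the label, and each library is also given alone. Each direction below is between libraries as labelled, and the part of the muscle and neuronal difference in the results was not tested. In such bulk libraries fewer cells of a type and less RNA per cell cannot be told apart.

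As a whole the 6 genes were a small fraction of the miRNA counts, led by Mir21a in both libraries, but the order beneath it differed. Their sum was 0.403% of counts in replicate 2 (exact 95% binomial interval 0.396 to 0.409) and 0.330% in replicate 1 (0.323 to 0.336). The mean over libraries was 3663 ± 514 CPM (SD, n = 2). Mir21a made up 86.5% of the 6-gene counts in replicate 2 (interval 85.9 to 87.0) and 67.7% in replicate 1 (66.7 to 68.6). Without Mir21a the other 5 genes summed to 544 CPM in replicate 2 and 1067 CPM in replicate 1, a ratio of 0.510 (interval 0.481 to 0.539). The sum with Mir21a was 1.22 times as high in replicate 2 (interval 1.19 to 1.25). With TMM, a scaling described below, the sum of the other 5 genes was 885 CPM in replicate 2 and 656 CPM in replicate 1 (ratio 1.35), so its direction depends on the scaling. The sum with Mir21a was higher in replicate 2 under both, by 3.23 times with TMM. Intervals here and below cover counting error only, and amplification can make several reads of 1 molecule.

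**Figure D1:**
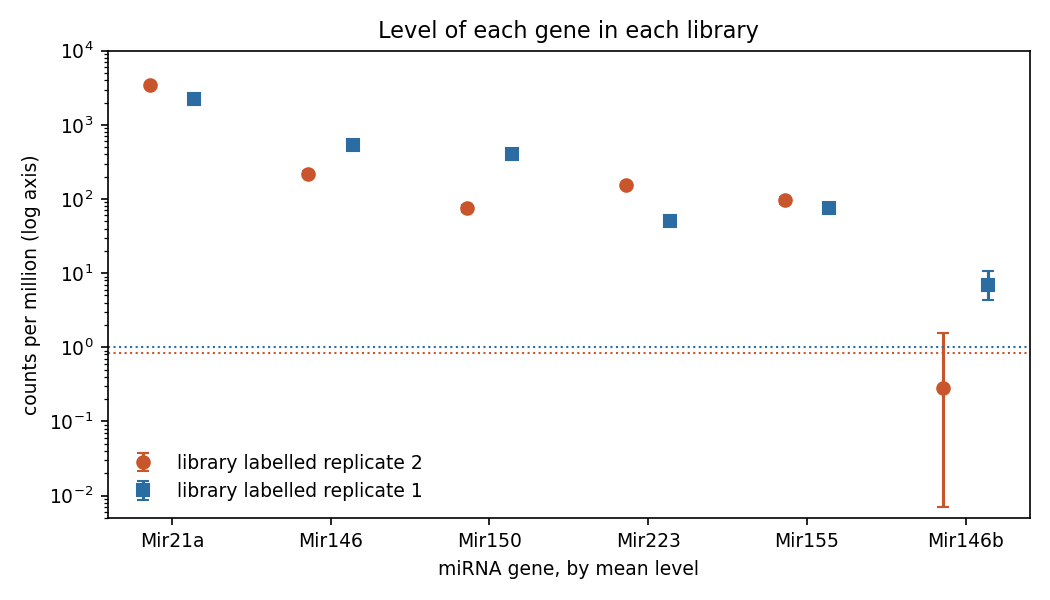
Level in CPM (log axis) of each gene, with circles for replicate 2, squares for replicate 1, exact 95% binomial intervals as bars and dotted lines at the limit of 3 counts in each library. Mir21a is highest in both libraries, Mir223 is higher and Mir150 lower in replicate 2, and Mir146b lies under the limit in replicate 2.

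Mir223, known from myeloid cells, and Mir150, known from lymphocytes, lay on opposite sides. Which cells the reads of either gene came from was not tested. Mir223 (ENSMUSG00000076066.1), the granulocyte and monocyte gene, had 546 counts or 153 CPM in replicate 2 and 151 counts or 50.3 CPM in replicate 1. That is a ratio of 3.03 (interval 2.53 to 3.65), the highest of the 6 genes. Mir150 (ENSMUSG00000065495.1), which in lymphocytes represses the transcription factor Myb, had 267 counts or 74.6 CPM in replicate 2 and 1208 counts or 403 CPM in replicate 1. Its ratio was 0.185 (interval 0.162 to 0.212). Replicate 2 is thus the higher library for Mir223 and the lower one for Mir150, and the counting intervals of the libraries do not overlap for either gene. Over both libraries Mir223 averaged 101 ± 72.3 CPM and Mir150 averaged 239 ± 232 CPM (SD, n = 2 each). These means hide that Mir223 was the higher of these genes in replicate 2 and Mir150 in replicate 1.

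With total counts the activation and broadly inflammatory genes differed least, and with TMM Mir146 did. Mir21a (ENSMUSG00000065455.1), which represses Pdcd4, had 12459 counts or 3482 CPM in replicate 2 and 6694 counts or 2232 CPM in replicate 1, a ratio of 1.56 (interval 1.51 to 1.61). It ranked 46 among all miRNA genes in replicate 2 and 69 in replicate 1. Mir155 (ENSMUSG00000065397.1), which represses Socs1 and Inpp5d in immune cells, had 346 counts or 96.7 CPM in replicate 2 and 229 counts or 76.4 CPM in replicate 1. Its ratio of 1.27 (interval 1.07 to 1.50) was the closest to 1 of the 6 genes with total counts. Both genes were higher in replicate 2, by less than 2-fold with total counts and more with TMM (log2 2.04 for Mir21a and 1.72 for Mir155). Mir155 averaged 86.5 ± 14.4 CPM and Mir21a 2857 ± 884 CPM (SD, n = 2 each).

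No reads were counted for the other miR-21 genes. Mir21c has the same seed, and Mir21b differs from Mir21a within it, as the following sequences show with the seed in capitals.
miR-21c: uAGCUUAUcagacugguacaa
miR-21b: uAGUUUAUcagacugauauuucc
Both genes had 0 counts in either library.

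With total counts Mir146 and Mir146b were both lower in replicate 2, but with TMM, a scaling described below, Mir146 was not (log2 0.13). Mir146 (ENSMUSG00000065601.1), the source of miR-146a, had 786 counts or 220 CPM in replicate 2 and 1592 counts or 531 CPM in replicate 1, a ratio of 0.414 (interval 0.379 to 0.451). It was the next highest of the 6 genes after Mir21a in both libraries and averaged 375 ± 220 CPM (SD, n = 2). Mir146b (ENSMUSG00000070127.2) had 1 count or 0.279 CPM in replicate 2, which is under the limit of 3 counts, and 21 counts in replicate 1 (interval 4.33 to 10.7 CPM). Its ratio of 0.0399 has a wide interval, 0.000965 to 0.248. Mir146 therefore supplied nearly all counts of genes with the shared seed, 786 counts to 1 in replicate 2 and 75.8 to 1 in replicate 1. The change of that ratio between libraries was 10.4-fold, with an exact interval of 1.66 to 429 that rests on the single Mir146b read.

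On the log2 scale with a prior of 1 CPM, Mir223 was the 1 gene at least 2-fold higher in replicate 2, with a ratio of 1.58. The 3 genes at least 2-fold lower were Mir146 with -1.27, Mir150 with -2.42 and Mir146b with -2.64. The 2 genes that were neither were Mir21a with 0.64 and Mir155 with 0.34. Among all 463 miRNA genes with at least 10 counts summed, which include all 6, 76.5% differed at least 2-fold, 21.4% higher and 55.1% lower. The count of 4 in 6 is near that background and is no result about these genes. The median log2 ratio was -0.47 over the 6 genes and -1.35 over the 463. Mir223 lay above 81.9% of the 463 genes in its log2 ratio, Mir21a above 76.2%, Mir155 above 73.9%, Mir146 above 51.6%, Mir150 above 28.5% and Mir146b above 24.8%. Mir146 was thus near the middle of all genes, 3 members lay in the upper part and 2 in the lower.

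**Figure D2:**
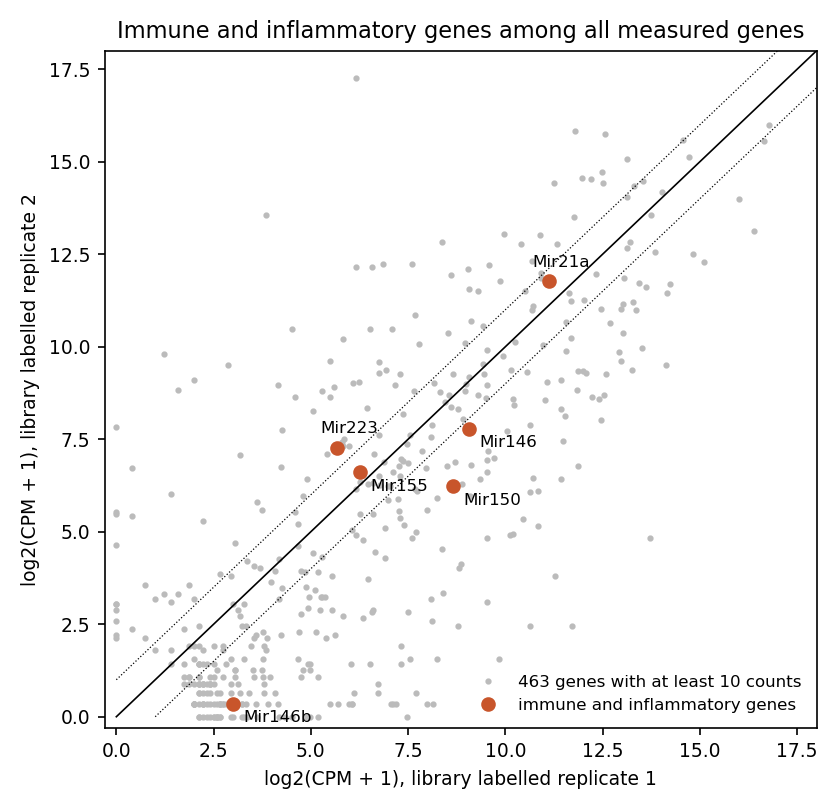
Each point is a miRNA gene with at least 10 counts summed, placed by log2(CPM + 1) in replicate 2 (vertical) and replicate 1 (horizontal), with the diagonal as a solid line, 2-fold limits as dotted lines and the 6 genes in colour. Mir223 lies above the upper 2-fold limit, Mir21a and Mir155 lie between the limits, and Mir146, Mir150 and Mir146b lie below the lower one.

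How high or low a gene stood between the libraries depended on the scaling. TMM, which centres on the bulk of genes, moved every ratio by 1.40 on the log2 scale, before the prior. With TMM the log2 ratios were 2.96 for Mir223, 2.04 for Mir21a, 1.72 for Mir155, 0.13 for Mir146, -1.02 for Mir150 and -1.87 for Mir146b. Then 3 genes were at least 2-fold higher and 2 lower, where 33.7% of all genes were higher and 34.8% lower. Mir146 changed its side of 0, so no direction is given for it without its scaling, while the other 5 kept theirs. With DESeq2 size factors the value of Mir150 was -0.88, under 2-fold.

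**Figure D3:**
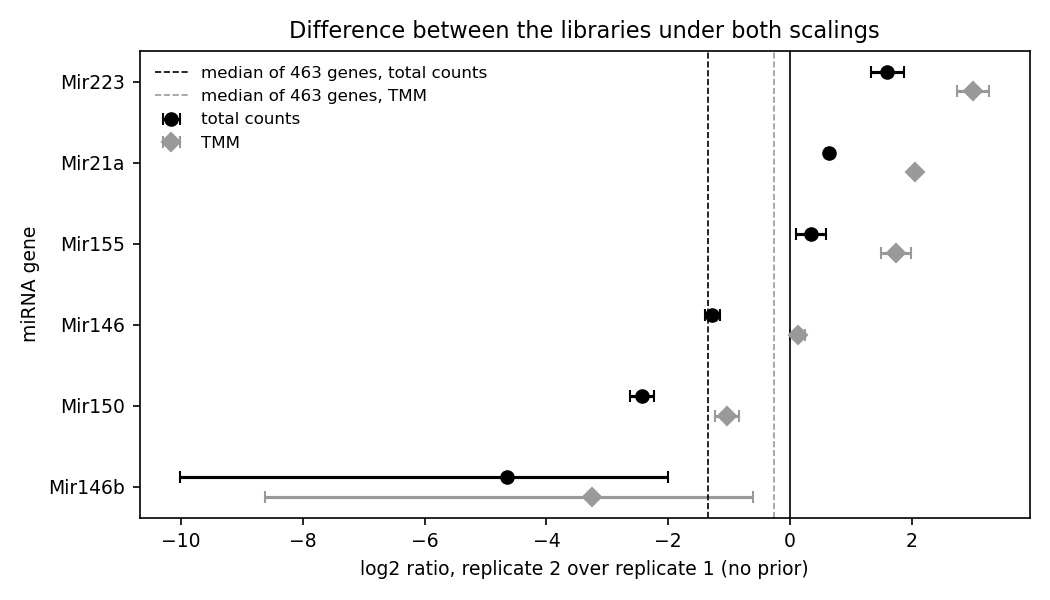
Log2 ratios of replicate 2 over replicate 1 without a prior, as circles with total counts and diamonds with TMM, with exact 95% intervals. The genes keep their order under both scalings, with Mir223 highest and Mir146b lowest, and Mir146 moves across 0. Dashed lines mark the median of 463 genes under each scaling.

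Ratios between genes inside a library need no scaling. Small RNA ligation prefers particular sequences, and whether it did so alike in both libraries was not tested. Mir223 had 2.04 counts for each count of Mir150 in replicate 2, against 0.125 in replicate 1. The change of this Mir223 to Mir150 ratio was 16.4-fold (exact conditional interval 13.0 to 20.6). Mir155 had 1.30 counts for each Mir150 count in replicate 2 and 0.190 in replicate 1, a 6.84-fold change (interval 5.49 to 8.51). Mir223 had 1.58 counts for each Mir155 count in replicate 2 and 0.659 in replicate 1, a 2.39-fold change (interval 1.86 to 3.08). These are the 3 pairs of the 15 whose order turned over between the libraries. Replicate 2 ran Mir21a, Mir146, Mir223, Mir155, Mir150, Mir146b from high to low, and replicate 1 ran Mir21a, Mir146, Mir150, Mir155, Mir223, Mir146b.

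Across the 10 pairs without Mir146b the ratio changed by 1.23-fold to 16.4-fold, and 8 changed at least 2-fold. The 5 pairs with Mir146b rest on its 1 read in replicate 2, and the interval for Mir223 to Mir146b was 11.9 to 3146. Mir21a to Mir155 changed least, with 36.0 Mir21a counts for each Mir155 count in replicate 2 and 29.2 in replicate 1 (1.23-fold, interval 1.04 to 1.46). Mir223 to Mir21a changed 1.94-fold (interval 1.62 to 2.35). Mir21a to Mir146, the broadly inflammatory gene against the feedback gene, was 15.9 in replicate 2 and 4.20 in replicate 1, a 3.77-fold change (interval 3.44 to 4.13). Mir155 to Mir146 was 0.440 in replicate 2 and 0.144 in replicate 1, a 3.06-fold change (interval 2.53 to 3.71). Mir146 to Mir150 changed 2.23-fold (interval 1.90 to 2.63). Mir150 to Mir146b was the pair whose interval, 0.739 to 193, held no change.

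Other miRNA genes of leukocytes split in the same libraries. Mir142, found across blood cell lineages, had 701 counts in replicate 2 and 323 in replicate 1, a ratio of 1.82 (interval 1.59 to 2.08). Its antisense partner Mir142b was at 0 own-strand counts in both. Mir342, in leukocytes but also in neural cells, had 2204 counts in replicate 2 and 18462 in replicate 1, a log2 ratio of -3.32 (interval of the ratio without a prior 0.0957 to 0.105). Mir511, from the gene of the macrophage mannose receptor, had 29 counts in replicate 2 and 51 in replicate 1, a ratio of 0.477 (interval 0.291 to 0.766). It was the other myeloid marker beside Mir223, and with total counts the myeloid markers thus went opposite ways. Of these 3 genes with at least 10 counts, 1 (Mir342) was at least 2-fold lower in replicate 2, 0 were higher and 2 were neither, beside 55.1% lower and 21.4% higher among all 463 genes. With TMM, 1 was higher and 1 lower, beside 33.7% higher and 34.8% lower among all genes. The median log2 ratio, that of Mir511, was -0.98 with total counts and 0.31 with TMM, so its sign depends on the scaling. Mir342 and Mir150 were lower under both scalings.

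Genes of the red cell list were mostly higher in replicate 2. Mir451a had 196 counts in replicate 2 and 34 in replicate 1, a ratio of 4.83 (interval 3.34 to 7.18). Mir486 had 305 counts in replicate 2 and 86 in replicate 1, and Mir144 had 48 counts in replicate 2 and 16 in replicate 1. The muscle miRNA genes held 15.7% of counts in replicate 2 and 0.00730% in replicate 1. Which cells the Mir486 reads came from was not tested. Of 5 genes listed, Mir486b was not found under that symbol. Of the 4 found, all with at least 10 counts, 3 were at least 2-fold higher under both scalings. Among all genes 21.4% were so with total counts and 33.7% with TMM. The remaining gene was Mir3107, with 2 counts in replicate 2 and 10 in replicate 1. It was at least 2-fold lower with total counts but under 2-fold with TMM. The median log2 ratio of the 4 genes was 1.36. Mir3107 lies opposite Mir486, so their counts depend on strand. The red cell markers Mir144 and Mir451a were higher in the same library as Mir223, with a sum of 68.2 CPM in replicate 2 and 16.7 CPM in replicate 1. Other blood cell markers did not all do so. With total counts Mir142 was higher in replicate 2, and Mir150, Mir342 and Mir511 were lower. The part of blood in the Mir223 difference was not tested.

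Genes linked to Toll-like receptor or NF-kB signalling outside the 6 were lower in replicate 2. All 9 with at least 10 counts (of 11 listed) were at least 2-fold lower with total counts, beside 55.1% of all genes, and 8 with TMM, beside 34.8%. Their log2 ratios had a median of -4.24 (total counts) or -2.84 (TMM). Of these genes, Mir9-1 and Mir9-3 had 1 count each in replicate 2, with 187 and 837 in replicate 1. They reached 10 counts only through replicate 1, so their direction was fixed by that minimum. Mir125a had 7464 counts in replicate 2 and 16774 in replicate 1, and was the exception with TMM (-0.02). Mir125b-1 had 1427 counts in replicate 2 and 14300 in replicate 1. Mir132, induced by neuronal activity as well as by Toll-like receptors, had 391 counts in replicate 2 and 11179 in replicate 1. The Mir9 genes are members of the neuronal list as well. Mir9, Mir132 and Mir125b are also abundant in neural cells, and the neuronal marker sum was 0.120% in replicate 2 and 3.89% in replicate 1. Its part in this list's values was not tested.

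The miR-181 genes, which tune T cell receptor signalling and are also made in neurons, were all at least 2-fold lower in replicate 2 with total counts (6 of 6, beside 55.1% of all genes), and 3 of 6 with TMM, near the 34.8% of all genes. Their log2 ratios had a median of -2.50 (total counts) or -1.09 (TMM). Mir181d had 2379 counts in replicate 2 and 29533 in replicate 1, Mir181c had 2319 in replicate 2 and 12342 in replicate 1, and Mir181b-2 had 1954 in replicate 2 and 8229 in replicate 1. The copies of Mir181a, Mir181b, Mir125b and Mir9 make like mature strands, and reads placed at several sites are outside these counts.

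**Figure D4:**
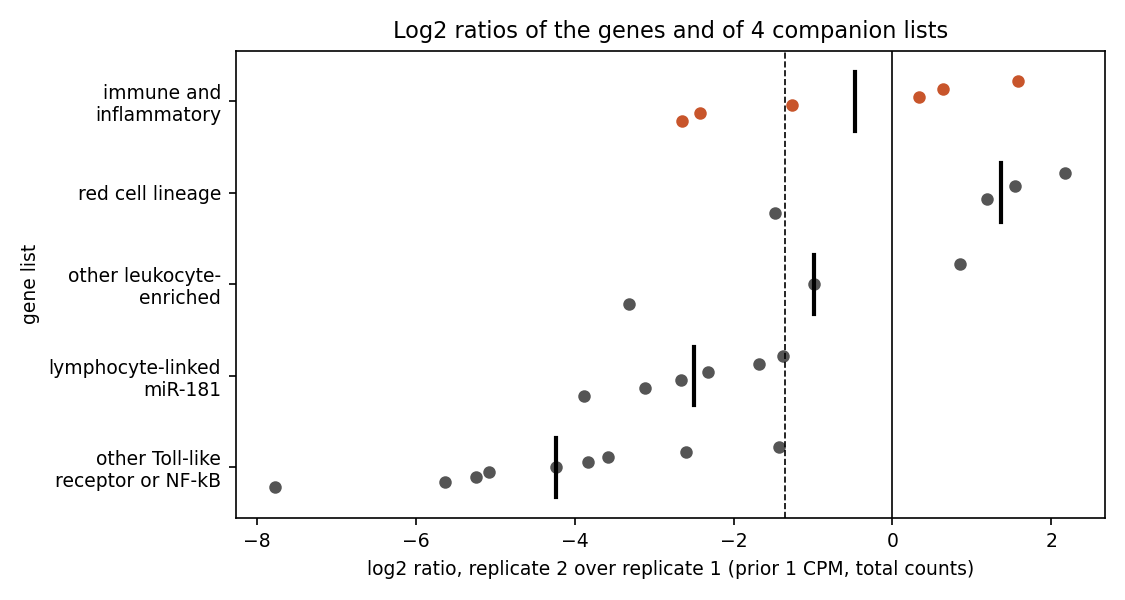
Log2 ratios of replicate 2 over replicate 1 (prior 1 CPM, total counts) for the 6 genes and for the genes of 4 companion lists with at least 10 counts, with the list median as a vertical bar and the median of 463 genes as a dashed line. The red cell median of 1.36 is the highest, the 6 genes spread on both sides of 0, and the miR-181 and other Toll-like receptor genes lie below 0.

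The genes nearest to each member in level were named by the distance between log2(CPM + 1) values over the 2 libraries, a description resting on 2 points a gene. Nearest to Mir223 were Mir34a (distance 0.15), Mir574 (0.19) and Mir374b (0.28), with 564, 607 and 642 counts in replicate 2 and 167, 163 and 169 in replicate 1. Nearest to Mir21a were Mir369 (0.22), Mir532 (0.30) and Mir376a (0.60). Nearest to Mir155 were Mir467c (0.26), Mir3072 (0.37) and Mir101a (0.43). Nearest to Mir146 were Mir668 (0.30), Mir666 (0.59) and Mir667 (0.73). Nearest to Mir150 were Mir700 (0.24), Mir34c (0.51) and Mir669c (0.54). Mir146b had Mir7240 (0.06), Mir216b (0.12) and Mir6986 (0.19) beside it, each with 1 count in replicate 2. None of the companion genes was among these neighbours.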

How the data were processed

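The deposited tables hold 3 columns of raw counts per miRNA gene, 1 library to a table. The text the authors deposited beside them names mm10 and GENCODE M21. Which aligner and counter made them is not given in the sources consulted. The columns have the STAR layout (either strand, own strand, opposite strand), and the own-strand column was used. That layout gives a read with several sites to no gene. The 4 entries without a gene stayed out of the totals. Reads at several sites were 39.8% of replicate 2 and 46.1% of replicate 1, and unplaced reads were 6.11% of replicate 2 and 18.4% of replicate 1. Reads outside miRNA genes were 1.47% of replicate 2 and 5.55% of replicate 1. Mature arms are not separated. Counts were not divided by hairpin length, and they do not show which reads were whole mature strands.

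Levels are CPM on own-strand totals, and ratios are replicate 2 over replicate 1. Log2 ratios carry a prior of 1 CPM. Ratios carry none and have exact Clopper-Pearson 95% intervals, and changes of ratios between genes have exact conditional intervals. With 1 library a side no test of the difference exists, edgeR's quasi-likelihood test could not be run, and no p-value is given. A call is a 2-fold difference among genes with at least 10 counts summed. Total counts were chosen as scaling because the levels are CPM, and TMM (edgeR) and DESeq2 size factors are alternatives. The script was tested on simulated data. The members, lists and rules were chosen with earlier results of these data known. All members were named, the companion lists by counts and up to 3 genes by mean CPM (Mir144, Mir3107, Mir142b and the Mir9 and Mir124a genes were chosen with their values in view), and 3 nearest genes per member. Software was edgeR 4.0.16 and DESeq2 1.42.0 in R 4.3.3, and scipy 1.17.1, pandas 2.3.3 and matplotlib 3.10.9 in Python 3.11.15.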

Additional observations from a re-analysis of the deposited data

How the results depend on the processing

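The 6 log2 ratios were recomputed under 6 settings, 36 values in all. Of these, 14 stayed within the counting interval, 20 moved beyond it with the same sign or without having been 2-fold, and 2 changed sign. Those 2 were Mir146, at 0.13 with TMM and 0.28 with DESeq2 size factors. In these data both scalings put all 6 log2 ratios above those with total counts. The number of genes at least 2-fold different was 4 or 5 under these settings and 2 with a 4-fold minimum. Its split was 1 higher and 3 lower with total counts, 3 and 2 with TMM and with all reads as the total, and 3 and 1 with DESeq2 size factors, so other genes were called. The log2 ratio of the sum of the 6 genes was 0.29 with total counts and 1.69 with TMM, and without Mir21a it was -0.97 with total counts and 0.43 with TMM, alternatives chosen after seeing the data. Among all genes it was 354 of 463, and 224 of 295 with a minimum of 100 counts, where fewer genes were measured. With DESeq2 size factors 166 were higher and 153 lower. The summed mean of the 6 genes lay between 3299 and 4026 CPM in single libraries and was 806 ± 370 CPM (SD, n = 2) without Mir21a. The log2 change of Mir223 to Mir150 was 4.03 with own-strand counts and with 0.5 added to each count, which is small beside these counts. Unstranded counts of both genes equalled their own-strand counts, so that setting could not change the value. No paired analysis was possible because there is a single group. Counts of 1 to 21 for Mir146b limit what can be said of it.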

Other observations

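Ratios of Mir223 and Mir150 to other blood markers, chosen after the values were seen, also need no scaling. Mir223 to Mir142 was 0.779 in replicate 2 and 0.467 in replicate 1, a 1.67-fold change (interval 1.33 to 2.10). Mir223 to Mir511 was 18.8 in replicate 2 and 2.96 in replicate 1, a 6.36-fold change (interval 3.80 to 10.8). Mir223 to red cell Mir451a was 2.79 in replicate 2 and 4.44 in replicate 1, a change of 0.627 (interval 0.405 to 0.952), so Mir451a was further up than Mir223. Mir223 to Mir144 changed by 1.21 (interval 0.620 to 2.23). Mir150 to Mir142 was 0.381 in replicate 2 and 3.74 in replicate 1, a change of 0.102 (interval 0.0841 to 0.123). Mir150 to Mir342 was 0.121 in replicate 2 and 0.0654 in replicate 1, a 1.85-fold change (interval 1.60 to 2.13).

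The opposite-strand column held 0 counts for the 6 genes in replicate 2 and 1 count, at Mir21a, in replicate 1. Unstranded counts of the 6 genes differed from own-strand counts by that single read.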
